A study of Homo sapiens with 2 samples.

Results

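Long 3′ untranslated regions (3′UTRs) are described here as targets of C-to-U editing. They were the 3′UTRs that measured 3000 nt or more after splicing in the Ensembl canonical transcripts of GENCODE 44, and an edit position belonged to one when it lay in it on the same strand and was not coding in a canonical transcript. Positions listed in both libraries, 1094 in these 3′UTRs, were left out. The RBFOX2 library held 8053 such positions among 109357 unshared positions, which was 7.36% (7.21 to 7.52). The enzyme-only library held 5208 among 91111, or 5.72% (5.57 to 5.87). Of 19559 canonical 3′UTRs, 3600 (18.4%) were long, with a median of 4369 nt and a maximum of 32870 nt. At least 1 position lay in 1381 of them, with 843 marked in both libraries, 308 in the RBFOX2 library alone and 230 in the enzyme-only library alone. The median gene with such a 3′UTR had 133 reads in the former and 126 in the latter.

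The libraries came from HEK293T cells, an embryonic kidney line that the labels also call HEK293XT. Fixed cells were treated with purified APOBEC1, a cytidine deaminase, fused to a nanobody against rabbit IgG. In the RBFOX2 library a rabbit antibody against RBFOX2 was applied first, and in the enzyme-only library the fusion was applied with no such antibody. Full-length cDNA was read on the PacBio platform, which keeps the whole 3′UTR of a molecule on 1 read. There was 1 library per group, so differences have no replicate check and compare these libraries, not the conditions. Ranges in parentheses are exact binomial 95% intervals (Clopper-Pearson for shares and ratios, order statistics for medians) that cover counting error only. They take each position as independent, although positions of 1 library came in groups, so they can be too narrow. The cells' tissue label is kidney, but of 8 markers of mature kidney only LRP2 had listed positions, 6 in the RBFOX2 library and 1 with enzyme only.

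Most of the regulatory elements of an mRNA that act after splicing lie in its 3′UTR, where microRNAs and RNA-binding proteins set stability, translation and location. A gene often has several cleavage and polyadenylation sites, so the annotated 3′ end can lie far beyond the end of the molecules a given cell makes. RBFOX2 is known chiefly as a splicing regulator in introns, and it also binds UGCAUG in 3′UTRs. APOBEC1 converts cytosines and prefers A or U directly 5′ of them.

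The sequences below show single edited cytosines of long 3′UTRs in hg38, written 5′ to 3′ on the strand of the gene with T for U. The first 5 are among the 6 RBFOX2-library positions with the most converted reads within 20 nt of UGCAUG, at most 1 per gene, and show how the motif and the edited base lie to each other. Capitals mark the motif, TGCATG, and the edited C.
SERBP1, chr1:67413125-67413153, minus strand: ttTGCATGcttaaggattccaaacgaCta
PPP2CA, chr5:134197547-134197576, minus strand: agttcatTGCATGctgaagcgaCattgttg
ID4, chr6:19840002-19840031, plus strand: atgatTGCATGagatgtttaatcaCaaatt
MED28, chr4:17624094-17624122, plus strand: taaattttTGCATGacttttCatcttttt
RAB11A, chr15:65889356-65889385, plus strand: ttgctaCtttgtattttaTGCATGctctgt

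In SERBP1, which encodes an mRNA-binding protein of ribosomes, the edited base lay 80 nt after the stop codon and was converted in 27 of the gene's 5100 reads, the most of any position in these 3′UTRs. The gene was not listed in the enzyme-only library. Listed edit fractions are always above 0.002, so in a gene with so many reads a position needs many converted reads to be listed. The missing entry therefore does not show that the gene was unedited or unread there. PPP2CA, the catalytic subunit of protein phosphatase 2A, had 13 converted reads at the base shown. ID4, an inhibitor of basic helix-loop-helix factors, had 8, MED28, a Mediator subunit, had 7, and RAB11A, a GTPase of recycling endosomes, had 6. In 4 of these 5 the edited base lay 3′ of the motif, 7 to 19 nt from its last base, and in RAB11A it lay 12 nt 5′ of it. The next 4 are the positions of the enzyme-only library with the most converted reads, with the edited C in capitals. The nearest UGCAUG in the same 3′UTR lay 774 nt or more from each of these 4. Unlike the 5 above, they were chosen with no motif condition, so these distances cannot be set against those above.
HNRNPA0, chr5:137752640-137752664, minus strand: aaatcatttttaCgttttattttta
SRSF1, chr17:58005309-58005333, minus strand: ttttaattcaaaCtgttttgttcag
ENSG00000286192, chr7:2234627-2234651, minus strand: tgggtgaggccaCtcatgcctgtaa
BUB3, chr10:123165166-123165190, plus strand: tcttacaagaaaCttgtctatgtac

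The hnRNP gene HNRNPA0 and the splicing factor gene SRSF1 each had 6 converted reads there, among 1082 and 1313 reads of the gene. ENSG00000286192 and BUB3, a spindle checkpoint gene, each had 5. Of the 10 RBFOX2-library positions with the most converted reads, 1 per gene and with ties ordered by edit fraction, 4 lay within 50 nt of UGCAUG, namely those in SERBP1, SKP1, PPP2CA and NUDT3. Of 10 chosen in that way in the enzyme-only library none did. SKP1, a subunit of SCF ubiquitin ligases, had 20 converted reads at 176 nt from its stop codon. SKP1 and PPP2CA lie in 1 deposited gene locus, so the 1387 reads given for each are the reads of both.

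Edits crowded at the stop codon end of these 3′UTRs in both libraries. The median position lay 474 nt (457 to 489) after the stop codon for RBFOX2 and 509.5 nt (491 to 533) for enzyme only, which was 9.85% (9.51 to 10.3) and 10.6% (10.1 to 11.1) of the way to the annotated end. Over all cytosines of the same 3′UTRs, weighted by their positions, the median would be 50.6% and 50.3%. The first 1000 nt held 75.4% (74.4 to 76.3) of the RBFOX2-library positions and 74.3% (73.1 to 75.5) of the enzyme-only positions, against 21.9% and 22.6% expected from the cytosines. The last 1000 nt held 4.61% and 4.92%, which was 0.207 (0.187 to 0.229) and 0.219 (0.194 to 0.247) times the expected share. The farthest position lay 22440 nt from the stop codon with RBFOX2 and 10349 nt with enzyme only.

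Along 10 equal parts of the 3′UTR, from the stop codon to the annotated end, the RBFOX2 library had 4062, 1751, 901, 421, 251, 129, 95, 117, 142 and 184 positions. The enzyme-only library had 2520, 1105, 604, 317, 178, 110, 85, 84, 92 and 113. Both fell through the first 7 parts and rose a little toward the annotated end. The observed over expected ratio was 4.93 (4.83 to 5.04) and 4.63 (4.50 to 4.76) in the first part, and 0.115 and 0.160 in part 7, the lowest in the RBFOX2 library. In the last part it was 0.241 and 0.232.

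**Figure D1:**
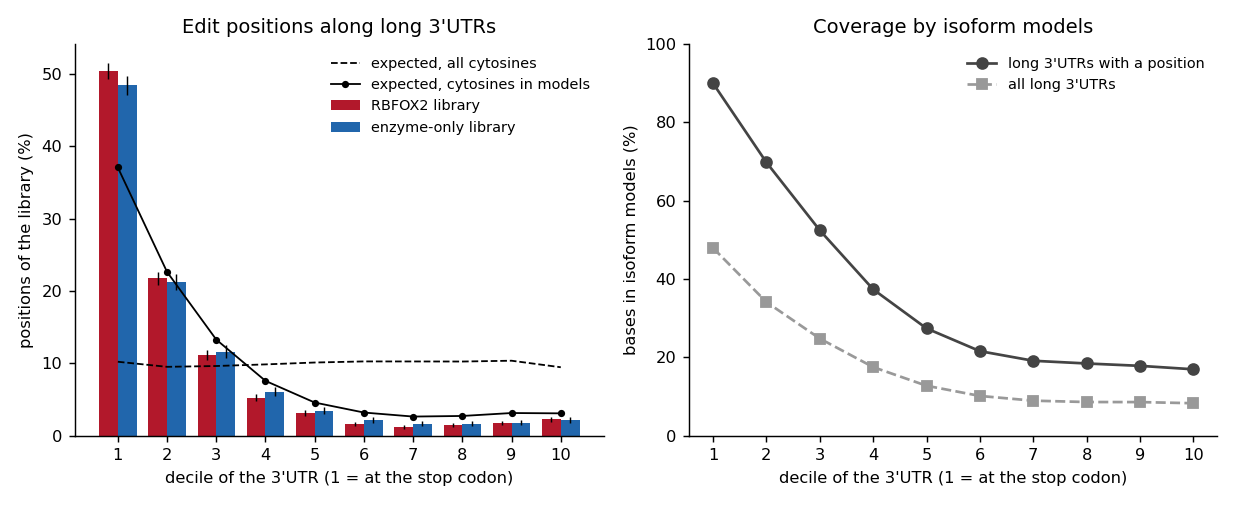
Left, share of each library's positions (percent, bars with exact 95% intervals) in 10 equal parts of the long 3′UTRs, from the stop codon to the annotated end, with the share expected for the RBFOX2 library over all cytosines (dashed) and over cytosines in isoform models (solid). Right, percent of bases in the deposited isoform models, for the 1381 long 3′UTRs with a position and for all 3600; coverage in the former falls from 90.0% in part 1 to 17.0% in part 10.

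Annotated length was seldom sequenced length in these cells. The deposited isoform models, built from both libraries, covered 31.3% of the bases of the 1381 long 3′UTRs with a position and 15.2% of those of all 3600. The most distal model end inside the annotated 3′UTR lay at a median of 1423 nt, or 29.7% of it, in the former. Models that ran past the annotated end were not counted as ends, so this value can understate how far models reach. In CNIH1 models covered 100% of the bases, but the most distal end counted lay at 884 nt. A model ended inside the 3′UTR within 50 nt of the annotated end in 200 of the 1381 (14.5%). When only cytosines in model exons gave the expected numbers, the first 1000 nt was expected to hold 61.6% of RBFOX2-library positions and 60.1% with enzyme only, so the ratio fell from 3.44 to 1.23 and from 3.29 to 1.24. By distance from the stop codon, the RBFOX2-library ratio against model cytosines was 1.47 in the first 100 nt, 0.968 between 500 and 1000 nt, 0.695 between 1000 and 2000 nt and 0.543 beyond. The enzyme-only values were 1.43, 1.05, 0.693 and 0.568. Reads per position are not given in the tables, so editing per read cannot be told apart from the share of molecules that reach a base.

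Among the 256 long 3′UTRs in which a model did end within 50 nt of the annotated end, positions were spread farther. The median lay at 24.1% of the 3′UTR for 1448 RBFOX2-library positions and at 27.4% for 1046 enzyme-only positions. The first 1000 nt still held 54.1% and 51.8% of them, against 27.6% and 27.8% expected. The last 1000 nt held 18.2% and 19.1%, against 26.2% and 26.7%. Length class moved the distance from the stop codon little. In 3′UTRs of 3000 to 4000 nt the medians were 466 and 556 nt, and in those of 7000 nt or more they were 437 and 459 nt.

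Some long 3′UTRs were marked mainly far from the stop codon. KCTD12, which encodes an auxiliary subunit of GABA-B receptors, had 36 RBFOX2-library and 30 enzyme-only positions along 4996 nt, with medians at 3485 and 3424.5 nt and only 1 and 5 positions in the first 1000 nt. CGGBP1, a CGG repeat binding protein gene, had 43 and 20 positions along 3523 nt, with medians at 2490 and 2391 nt. Isoform models reached 4994 nt in KCTD12 and 3457 nt in CGGBP1. In IST1, an ESCRT-III gene, all positions lay within 1170 nt of the stop codon and the models ended at 1192 nt of a 3386 nt 3′UTR. Positions beyond 2000 nt were found in 164 long 3′UTRs with RBFOX2 (680 positions) and in 176 with enzyme only (488 positions).

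**Figure D2:**
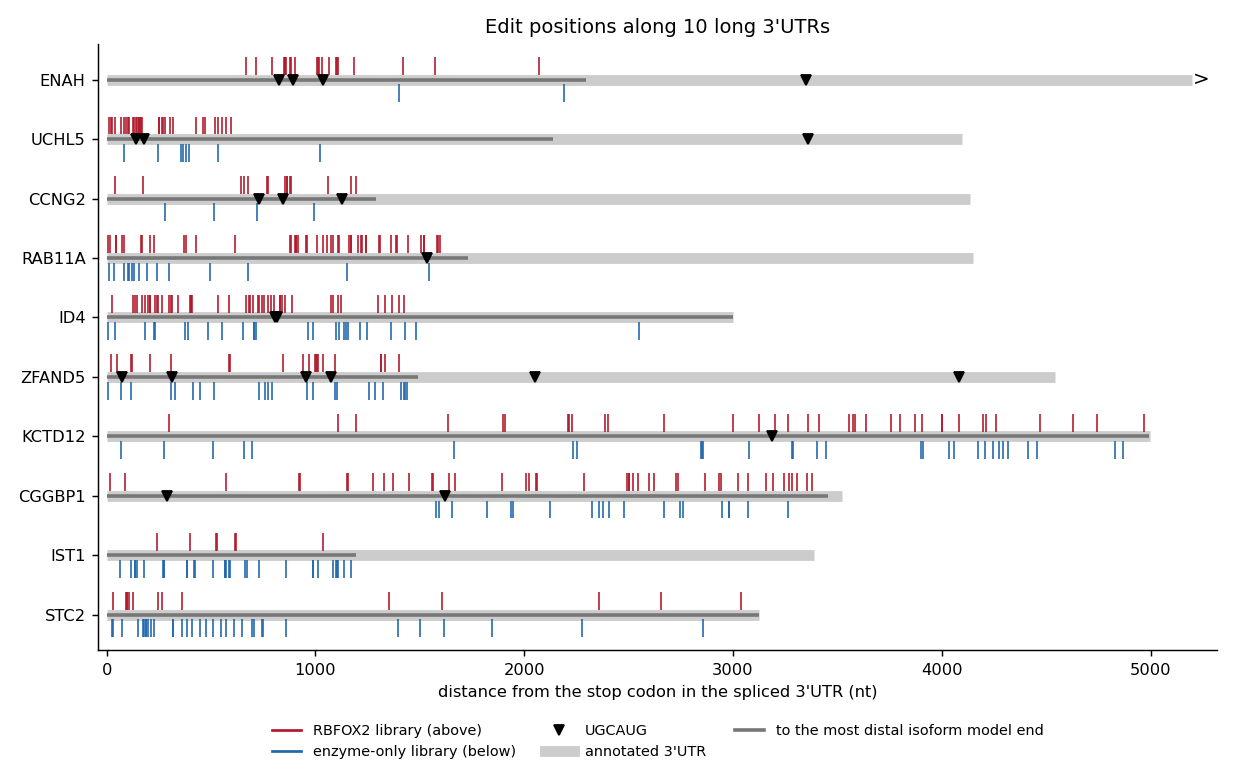
Unshared edit positions of the RBFOX2 library (red, above) and the enzyme-only library (blue, below) along 10 of the named long 3′UTRs, in nt from the stop codon of the spliced 3′UTR; grey bars are the annotated 3′UTR, dark lines reach the most distal isoform model end and triangles are UGCAUG. ENAH continues past the right edge; positions stop where models stop in IST1 and CCNG2, and run to the annotated end in KCTD12.

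Long 3′UTRs held a larger share of the positions of the RBFOX2 library than of those with enzyme only. Scaled by the unshared positions of each library, the ratio of RBFOX2 to enzyme-only positions was 1.29 (1.24 to 1.33). It was 1.18 (1.15 to 1.20) in 3′UTRs of 1000 to 3000 nt, 1.12 (1.10 to 1.15) in shorter ones and 0.973 (0.943 to 1.00) in the coding sequence of the same long-3′UTR transcripts. By distance from the stop codon it was 1.31 (1.26 to 1.36) in the first 1000 nt, 1.28 (1.17 to 1.39) from 1000 to 2000 nt and 1.16 (1.03 to 1.31) beyond. Over the 10 equal parts of the 3′UTR the ratio was highest in the first, at 1.34 (1.28 to 1.41), and the last, at 1.36 (1.07 to 1.73). The intervals of parts 4 to 9 all included 1, with 0.977 (0.752 to 1.27) in part 6 and 0.931 (0.688 to 1.26) in part 7. Within single 3′UTRs neither library lay consistently nearer the stop codon. Among 284 long 3′UTRs with at least 5 positions in each library, the RBFOX2-library median was nearer the stop codon in 144 and farther in 140.

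The motif of RBFOX2 set the libraries apart. Of the RBFOX2-library positions in long 3′UTRs, 475 lay within 50 nt of UGCAUG, which was 5.90% (5.39 to 6.44) against 3.31% expected over the cytosines of the same 3′UTRs, or 1.78 times (1.63 to 1.95). Of the enzyme-only positions 172 did, which was 3.30% (2.83 to 3.82) against 3.16%, or 1.05 times (0.897 to 1.21). The motif was searched on the strand of the gene in the spliced 3′UTR. It occurs at least once in 74.9% of the long 3′UTRs and in 33.3% of all canonical 3′UTRs. Against cytosines in isoform models with the same kind of 5′ base, A or U against C or G, the ratios were 1.68 (1.54 to 1.84) and 0.989 (0.848 to 1.15). Neither background was matched to place along the 3′UTR, and positions crowded at the stop codon end. In the first 500 nt, which held 4164 of the 8053 RBFOX2-library positions, the ratio to the cytosines there was 1.31 (1.15 to 1.49). The 1.78 therefore includes a part that goes with place, and the size of that part was not computed. The 475 positions came from 180 3′UTRs, and the 6 with the most held 62 of them (13.1%).

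The excess of RBFOX2-library positions was largest close to the motif. Against model cytosines the ratio was 2.59 (2.04 to 3.24) at 11 to 20 nt 3′ of UGCAUG, 1.81 (1.35 to 2.37) at 1 to 10 nt 3′ and 2.14 (1.64 to 2.73) at 1 to 10 nt 5′. At 21 to 50 nt it was 1.67 (1.41 to 1.97) on the 3′ side and 1.29 (1.05 to 1.56) on the 5′ side. Inside the motif, where there is 1 cytosine, only 3 positions were listed, 0.184 times the expected number (0.0379 to 0.536). With enzyme only it was 0.529 times (0.172 to 1.23). That cytosine has G directly 5′, and this background was not matched to the 5′ base. Over all positions of long 3′UTRs, those after G were 0.354 times the expected number for RBFOX2 and 0.503 times for enzyme only. The part of the low value that goes with the 5′ base was not computed. In the enzyme-only library every distance class up to 200 nt had an interval that included 1. Of 746 UGCAUG motifs in isoform models of these 3′UTRs, 218 (29.2%) had an RBFOX2-library position within 50 nt, 128 (17.2%) an enzyme-only position and 74 both. An RBFOX2-library position lay beside 88 of the 200 motifs in the first 500 nt and 23 of the 185 beyond 2000 nt, and an enzyme-only position beside 58 and 11 of them. These counts of motifs were not scaled by the number of positions, which was larger in the RBFOX2 library. In isoform models it was 8027 against 5201 in all, 4164 against 2566 in the first 500 nt and 666 against 485 beyond 2000 nt. The counts alone therefore do not show a preference for the motif.

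Positions with more converted reads lay near the motif more often. For RBFOX2 the ratio rose from 1.54 (1.39 to 1.71) for 6669 positions with 1 converted read to 2.33 (1.81 to 2.94) at 2 reads, 3.32 (2.47 to 4.35) at 3 or 4 reads and 6.52 (4.28 to 9.28) at 5 or more reads, where 23 of 115 positions lay within 50 nt. The enzyme-only ratio was 1.02 (0.870 to 1.19) for 4747 positions with 1 converted read, 1.34 (0.739 to 2.22) at 2 reads and 1.33 (0.276 to 3.73) at 3 or 4 reads. None of the 7 enzyme-only positions with 5 or more did, which allows a share of up to 41.0% by the exact interval. The ratios by converted reads were not matched to place along the 3′UTR. Against the cytosines of the same stretch, the RBFOX2-library ratio was 1.31 (1.15 to 1.49) in the first 500 nt and 1.40 (1.17 to 1.66) from 500 to 1000 nt. It was 1.58 (1.27 to 1.95) from 1000 to 2000 nt and 1.90 (1.35 to 2.59) beyond, with intervals that overlap. The enzyme-only intervals included 1 in each stretch.

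**Figure D3:**
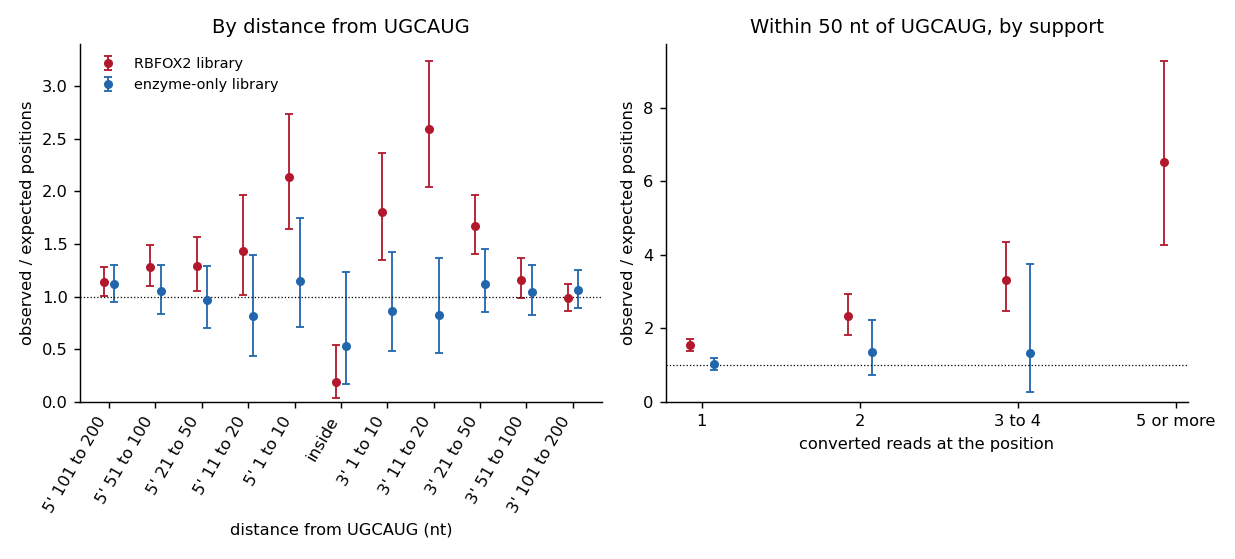
Observed over expected number of positions in long 3′UTRs (points, with exact 95% intervals of the share). Left, by distance in nt 5′ or 3′ of UGCAUG against cytosines in isoform models; right, within 50 nt of UGCAUG by the number of converted reads against all cytosines, where the enzyme-only class of 5 or more, 0 of 7 positions, is not drawn. The RBFOX2 library peaks at 2.59 on the left and at 6.52 on the right; the dotted line is 1.

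The same measure was set beside other regions of mRNAs. For the RBFOX2 library the UGCAUG ratio was 1.78 in long 3′UTRs, 1.61 (1.52 to 1.71) in 3′UTRs of 1000 to 3000 nt, 1.20 (1.11 to 1.29) in 3′UTRs under 1000 nt and 1.30 (1.16 to 1.45) in the coding sequence of the long-3′UTR transcripts. For the enzyme-only library it was 1.05, 0.867 (0.779 to 0.961), 0.893 (0.792 to 1.00) and 1.00 (0.861 to 1.16). The interval of the RBFOX2 library in long 3′UTRs overlapped that of the middle length class and lay above the others. These ratios are against all annotated cytosines of each class and are not matched to place along the region. Against cytosines in isoform models the RBFOX2-library ratio in long 3′UTRs was 1.62 (1.48 to 1.76), and the other classes were not set beside it on that background. The difference between classes was not tested. By 3′UTR length the RBFOX2-library ratio was 1.51 (1.30 to 1.75) at 3000 to 4000 nt, 2.16 (1.83 to 2.54) at 4000 to 5000 nt, 1.48 (1.17 to 1.85) at 5000 to 7000 nt and 2.33 (1.89 to 2.83) above, with no single trend. The enzyme-only ratio was 1.43 (1.07 to 1.86) at 4000 to 5000 nt, its highest.

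**Figure D4:**
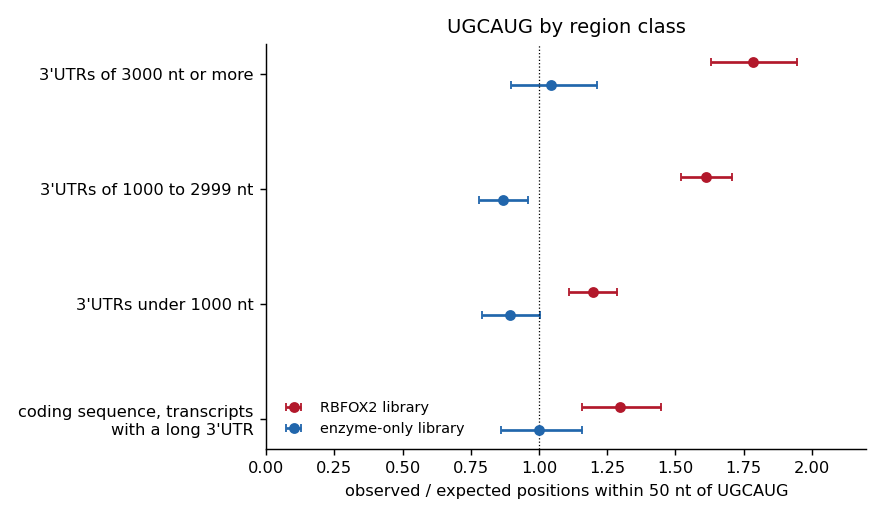
Observed over expected share of positions within 50 nt of UGCAUG (points with exact 95% intervals) in 4 classes of mRNA region, by library, against all cytosines of each region. The RBFOX2 library reads 1.78, 1.61, 1.20 and 1.30 from top to bottom and lies above 1 (dotted) in each class; the enzyme-only library stays between 0.867 and 1.05.

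Of 3 other 3′UTR elements, the AU-rich pentamer differed most between the libraries, and by less than UGCAUG. Against model cytosines, positions within 50 nt of the Pumilio element UGUANAUA (N is any base) were 1.36 (1.20 to 1.53) times the expected number for RBFOX2 and 1.37 (1.17 to 1.59) times for enzyme only. For that pentamer, AUUUA, which marks unstable mRNAs, the ratios were 1.14 (1.09 to 1.18) and 1.02 (0.964 to 1.08). For the poly(A) signal AAUAAA they were 0.928 (0.867 to 0.992) and 0.973 (0.892 to 1.06). Windows of different elements can overlap. Against all cytosines of the annotated 3′UTR the poly(A) signal read 1.13 and 1.18, on the other side of 1.

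The base 5′ of the edited cytosine followed the preference of APOBEC1 in both libraries. It was A or U at 82.5% (81.6 to 83.3) of the RBFOX2-library positions and 74.2% (73.0 to 75.4) of the enzyme-only positions, against 54.1% and 53.0% of the cytosines. A was over-represented by 1.70 and 1.52 times and U by 1.38 and 1.30 times, and G was the least frequent at 0.354 and 0.503 times. In the coding sequence of the same transcripts the A or U shares were 73.6% and 67.4%, against a lower 48.9% and 48.4% of the cytosines there. At least 2 reads were converted at 17.2% (16.4 to 18.0) of positions with RBFOX2 and 8.85% (8.09 to 9.66) with enzyme only. That share fell along the 3′UTR, from 21.1% to 6.76% between the first 500 nt and the stretch beyond 2000 nt for RBFOX2, and from 10.6% to 3.89% for enzyme only. Positions of 1 library came in groups. Another position of the same library lay within 50 nt for 66.0% of RBFOX2-library positions and 50.7% of those with enzyme only, against 52.6% and 39.0% if as many positions fell on any model cytosines of that 3′UTR, or 1.26 (1.24 to 1.28) and 1.30 (1.27 to 1.34) times.

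Single 3′UTRs were compared where both libraries together had at least 20 positions, which held for 208. Log2 ratios of RBFOX2 to enzyme-only positions carry a pseudocount of 0.5 and are scaled by the unshared positions of each library. The ratio was more than 2-fold up in 61 (29.3%) and more than 2-fold down in 17 (8.17%), beside 26.6% and 11.6% of the 1117 canonical 3′UTRs of any length that passed the same minimum. The median log2 ratio was 0.53 in long 3′UTRs and 0.27 in the 909 shorter ones. Scaled by the positions within long 3′UTRs instead, 41 were higher and 27 lower. Gene reads moved with these counts, and their part in the result was not tested. In 17 of the 208 the gene had 500 reads or more in both libraries, where positions with 1 converted read are not listed, and 13 of the 17 were over 2-fold higher in the RBFOX2 library and 0 lower. In the 189 with under 500 reads in both, 48 were higher and 15 lower. In shorter 3′UTRs the same split gave 29 of 57 and 205 of 811 higher. Reads of the 1120 genes listed in both libraries summed to 240450 and 214898, a ratio of 1.12.

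**Figure D5:**
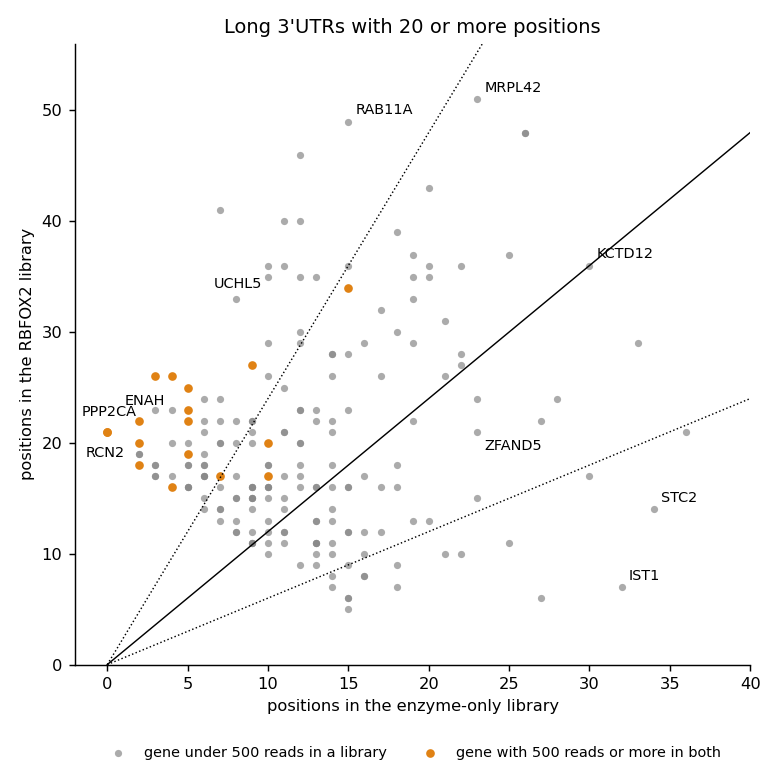
Number of unshared positions in the RBFOX2 library (vertical) against the enzyme-only library (horizontal) for the 208 long 3′UTRs with at least 20 positions; each point is 1 3′UTR, the solid line is equality after scaling and the dotted lines are 2-fold. Of the 17 genes with 500 reads or more in both libraries (orange), 13 lie above the upper dotted line; 15 of the 17 3′UTRs below the lower line are of genes with under 500 reads in both.

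The 3′UTRs with the most positions were those of MRPL42, a mitochondrial ribosomal protein gene, with 51 RBFOX2-library and 23 enzyme-only positions, ID4 with 48 and 26, ENSG00000285976 with 48 and 26, KCTD12 with 36 and 30, RAB11A with 49 and 15, and CGGBP1 with 43 and 20. The 3′UTR of ENSG00000285976 contains 3413 of the 3414 nt of that of PTP4A1, a tyrosine phosphatase gene, so these positions belong to either. The log2 ratio of RAB11A was 1.41 (0.59 to 2.39), with an interval above 0, while that of KCTD12 was 0.00 (−0.74 to 0.75). In RAB11A the RBFOX2-library positions had a median of 1054 nt from the stop codon and the enzyme-only positions of 157 nt, and the motif shown above lies in the distal group.

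The 5 highest ratios, among genes on the same side of 500 reads in both libraries, were those of PPP2CA and RCN2 with 21 RBFOX2-library and 0 enzyme-only positions each, ENAH with 22 and 2, and CYCS and ATP6V1C1 with 20 and 2 each. With 0 positions in 1 library, PPP2CA and RCN2 have only a lower limit of the log2 ratio, 2.12. The listed edit fraction is always above 0.002, so the converted reads needed rise with gene reads. At their 1260 and 1171 enzyme-only reads, positions with 1 or 2 converted reads are not listed. The 0 therefore does not show that these 3′UTRs were unedited in that library. These counts leave out positions listed in both libraries, of which RCN2 had 7, CYCS 11 and PPP2CA 1. The log2 ratio of ENAH was 2.91 (1.17 to 6.33) and that of CYCS 2.77 (1.02 to 6.20). RCN2 encodes a calcium-binding protein of the endoplasmic reticulum, CYCS cytochrome c and ATP6V1C1 a subunit of the vacuolar proton pump. The 3′UTR of PPP2CA shares 655 nt with that of ENSG00000273345. No motif occurs in the 3′UTRs of RCN2 and CYCS, and none of the ATP6V1C1 positions lay within 50 nt of its 2 motifs. PPP2CA had 6 of its 21 positions and ENAH 13 of its 22 within 50 nt of UGCAUG. All of these genes but ATP6V1C1 had 500 reads or more in both libraries.

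At the other end, IST1 had 7 RBFOX2-library and 32 enzyme-only positions, a log2 ratio of −2.38 (−3.88 to −1.25). VWA1, an extracellular matrix gene, had 5 and 15, GRWD1, a WD repeat gene, had 7 and 18, ENSG00000289517 had 6 and 15, and STC2, which encodes the secreted glycoprotein stanniocalcin 2, had 14 and 34. Each of these intervals lay below 0. All 5 genes had under 500 reads in both libraries, and none of their positions in either library lay within 50 nt of UGCAUG. The 3′UTR of ENSG00000289517 shares 1955 of the 2070 nt of that of POLDIP3 and 206 nt with CYB5R3.

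The 6 3′UTRs with the most RBFOX2-library positions near UGCAUG were those of ENAH, UCHL5, CNIH1, ZFAND5, CCNG2 and CAPRIN1. ENAH, an actin regulator, had 13 near positions against 0 with enzyme only. They ran from 792 to 1064 nt after the stop codon, around 3 of its 8 motifs, and the best supported, at 1064 nt and 27 nt 3′ of a motif, had 8 converted reads. UCHL5, a deubiquitinase of the proteasome, had 12 near positions against 0, with 6 converted reads at 153 nt, 11 nt 3′ of a motif. CCNG2, the cyclin G2 gene, had 9 against 1. CAPRIN1, an RNA-binding protein gene of stress granules, had 8 against 2, and CNIH1, a cornichon cargo receptor gene, 10 against 4. ZFAND5, a zinc finger gene with 6 motifs, had 10 against 8, so both libraries were edited near its motifs. This ranking used the positions it describes and is given as a description.

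Genes of post-transcriptional regulation and growth were read from 5 lists. Of 27 genes of the microRNA machinery and mRNA decay, 13 had a long 3′UTR and 6 a position, with 26 RBFOX2-library and 20 enzyme-only positions in all, a scaled ratio of 1.08 (0.582 to 2.05) beside 1.29 over all long 3′UTRs. DICER1, the microRNA processing nuclease, had 12 and 6, of which 3 and 0 lay near UGCAUG, while CNOT7, a deadenylase subunit, had 2 and 11 among 529 and 437 gene reads, on opposite sides of the 500 at which positions with 1 read drop out. Without CNOT7 the list had 24 and 9 positions, a ratio of 2.22 (0.997 to 5.43). Of 25 splicing regulators and other RNA-binding proteins, 18 were long and 10 had a position, with 36 and 27, a ratio of 1.11 (0.656 to 1.90). ELAVL1, which encodes the AU-rich element binding protein HuR, had 16 and 4 among 737 and 772 gene reads, and SRSF1 had 3 and 4. Without ELAVL1 the list had 20 and 23, a ratio of 0.724 (0.377 to 1.38). The 5469 nt 3′UTR of RBFOX2 itself had 0 and 1 position although the gene had 247 and 221 reads, and its most distal model ended at 260 nt.

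Of 24 growth signalling and cell cycle genes, 21 were long and 12 had a position, with 83 and 34 positions, a ratio of 2.03 (1.35 to 3.13). The RAS GTPase gene NRAS had 17 and 11, and PIK3R1, a regulatory subunit of PI3 kinase, had 12 and 4. In NRAS all 17 RBFOX2-library positions lay in the first 900 nt, 4 of them near its motif, and the enzyme-only positions reached 3444 nt. Of 20 genes of ubiquitin and NEDD8 ligation, 13 were long and 10 had a position, with 42 and 18, a ratio of 1.94 (1.10 to 3.59), among them 13 and 6 in DCUN1D4 and 7 and 1 in the E2 enzyme gene UBE2K. Of 22 transcription and chromatin regulators, 11 were long and 7 had a position, with 34 and 10, a ratio of 2.83 (1.37 to 6.43). The transcription factor gene SOX12 had 16 of those 34 and 4 of those 10. NFIB, another transcription factor gene, had 6 and 0, of which 4 lay near UGCAUG, but the gene was not listed in the enzyme-only library. Among list members with at least 20 positions, NRAS was not past 2-fold, while ELAVL1 and SOX12 were, both at a log2 ratio of 1.61 (0.10 to 3.78), beside 29.3% of the 208. Leaving out any single member other than CNOT7 and ELAVL1 moved no list's ratio by over 1.5 times.

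Of 5 human genes that the study discusses, APP, DCUN1D4, DEPDC1, OGT and PKM, only DCUN1D4, a NEDD8 ligase cofactor, has a long canonical 3′UTR. It had 13 RBFOX2-library and 6 enzyme-only positions among 148 and 129 reads, a log2 ratio of 0.79 (−0.64 to 2.53), within counting error. Its 3253 nt hold no UGCAUG. The RBFOX2-library positions ran from 38 to 2821 nt after the stop codon and the enzyme-only positions from 50 to 508 nt.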

How the data were processed

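Edit tables and isoform models of 2 libraries, 1 RBFOX2 and 1 enzyme-only, were grouped by the labels' descriptions. In the study's methods, full-length reads were aligned with pbmm2 and edits called by the authors' code; the labels give hg38 and another library kit than those methods. The authors deposited, per position, the count of converted reads, the count of reads of its whole gene, and the edit fraction, which is their quotient and always above 0.002, so genes of 500 reads or more list no position with 1 converted read. A deposited confidence score was not used. The isoform table held 119827 models of both libraries pooled.

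Canonical 3′UTRs came from GENCODE 44 (python 3.11.15, numpy 2.4.6, scipy 1.17.1, pysam 0.24.0). The 529 positions in several canonical 3′UTRs, counted over both libraries, went to the longest. Expected shares were computed from the cytosines of each 3′UTR, weighted by its positions, and tested on simulated positions. No p-value was computed with 1 library per group. Named 3′UTRs were the 6 with the most positions, the 5 highest and 5 lowest ratios, the 6 with the most positions near UGCAUG, the study's genes and list members with at least 20 positions. DICER1, CNOT7, SRSF1, PIK3R1, UBE2K and NFIB were added after their values were seen, as were the enzyme-only sequences. Some genes that these rules name are not reported here. Members, lists and measures were chosen with earlier results of these data known.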

Additional observations from a re-analysis of the deposited data

How the results depend on the processing

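With 1 library per group, no replicate was left out. No paired analysis was possible because each group has 1 library and the labels number the enzyme-only library 1 and the RBFOX2 library 2. Of 156 values under other settings, 104 were classed as unmoved and 52 as moved. Shares, medians and ratios classed as unmoved stayed within their counting interval, but counts had a wider limit. RBFOX2-library positions, 8053, became 7106 in genes with at most 500 reads and 9147 with shared positions kept. The 61 3′UTRs over 2-fold higher became 41 when scaled by positions in long 3′UTRs. All of these were classed as unmoved. The values that changed direction, the enzyme-only UGCAUG ratio and the log2 ratio of NRAS given below, had intervals that included no change. The cause of the shifts was not tested. In the following pairs the RBFOX2 library comes before the enzyme-only library.

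The length that defines a long 3′UTR set how many positions there were and their relative place. With 2000 nt as the minimum there were 14321 and 9668 positions, with a median at 13.8% and 15.8% of the 3′UTR, 74.0% and 71.6% in the first 1000 nt and 10.6% and 11.9% in the last 1000 nt. With 5000 nt there were 2949 and 1868, with medians at 6.07% and 6.17%, 76.7% and 77.7% in the first 1000 nt and 3.15% and 2.84% in the last. Positions with at least 2 converted reads numbered 1384 and 461, lay at medians of 7.21% and 8.19%, with 84.3% and 85.5% in the first 1000 nt and 1.81% and 1.95% in the last. A or U preceded 93.8% and 86.6% of these. Within 50 nt of UGCAUG lay 9.61% of the RBFOX2-library ones, and the ratios to the expected share were 2.96 and 1.32.

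Against cytosines in isoform models, the ratio in the first decile of the 3′UTR was 1.37 and 1.34, in the last 0.740 and 0.699, and near UGCAUG 1.62 in the RBFOX2 library. Against all cytosines, where the RBFOX2-library ratio near UGCAUG was 1.78, windows of 20 and 200 nt gave 1.97 and 1.36. The enzyme-only ratio near UGCAUG, 1.05, fell below 1 with a minimum of 2000 nt (0.943) and a window of 20 nt (0.952). With model cytosines it was 0.967, or 0.989 with the same 5′ base. It rose to 1.16 with a minimum of 5000 nt and to 1.14 with shared positions kept. The log2 ratio of NRAS went from 0.34 to −0.02 when scaled by positions in long 3′UTRs. A neighbour within 20 nt was found at 43.2% and 29.6% of positions. In genes with at most 500 reads the RBFOX2-library median was 10.4% of the 3′UTR and its share with A or U 81.5%, and 9.91% and 5.29% of positions had at least 2 converted reads. With shared positions kept, 76.4% and 75.9% lay in the first 1000 nt, and the enzyme-only median was 10.1%. Over 2-fold higher in the RBFOX2 library were 142 3′UTRs with at least 10 positions and 4 with at least 50, and lower were 56 and 1, or 27 of the 208 when scaled by positions in long 3′UTRs. For groups of neighbours, the ratios of 1.26 and 1.30 against model cytosines were added after seeing the data, as were the UGCAUG ratios with the same 5′ base and model cytosines, the split at 500 gene reads, the lists without single members, the length classes, the 3′UTRs with full models and the medians within single 3′UTRs. At this depth most positions rest on 1 converted read, so a position missing from 1 library does not show that its base was unedited there.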

Other observations

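The 1094 positions of long 3′UTRs that were listed in both libraries belong to no comparison above. Their median lay 394.5 nt after the stop codon, and A or U preceded 91.8% of them. Within 50 nt of UGCAUG lay 56 of them, or 5.12% (3.89 to 6.60), which was 1.61 times (1.22 to 2.08) the share expected over the cytosines of the same 3′UTRs. Median edit fractions were 0.443% with RBFOX2 and 0.407% with enzyme only, while the fraction was higher in the RBFOX2 library at 34.7% (31.9 to 37.6) of the 1094. At 599 positions both libraries had 1 converted read, so that the fraction follows the reads of the gene alone, and it was higher in the RBFOX2 library at 11.4% (8.92 to 14.2) of these. At the other 495 it was higher at 63.0% (58.6 to 67.3). In both libraries 2 positions had an edit fraction over 30%.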
